A study of Danio rerio with 35 samples.

Results

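Genes of the annexin, S100 and ferlin families, known from the repair of torn cell membranes, were followed in adult zebrafish hearts with and without klf1 overexpression. The 10 genes were the ferlins myof and dysf, the annexins anxa1a, anxa2a, anxa3b, anxa4, anxa5b, anxa6 and anxa11a, and the S100 gene s100a10b. They were picked by symbol from a count table of 14781 genes, and all 10 were present. The choice was made with earlier results of the same comparison known, so the levels and fold changes of these 10 genes are descriptions and carry no test.

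Polyadenylated RNA was sequenced from whole hearts of adult zebrafish in 8 libraries, 4 from fish labelled WT and 4 from fish labelled klf1 overexpressing. The labels do not say which promoter or driver produced klf1, which cells it acted in, for how long, or whether each library is a separate fish. P-values therefore measure only the spread between these libraries. The libraries held 9829896 to 13083853 counts each. The transcript of klf1, an erythroid transcription factor, was at 173, 268, 296 and 128 CPM, counts scaled to a common library size, in WT libraries 1 to 4 and at 594, 655, 732 and 601 CPM in klf1 libraries 1 to 4, so each klf1 library was above each WT library, as labelled. The scale uses edgeR's TMM factors, which correct for a few very abundant genes taking a large part of a library, and CPM are not divided by transcript length, so levels are compared between genotypes and not between genes. In bulk RNA, fewer cells of a type and less RNA per cell cannot be told apart.

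Annexins are calcium-dependent proteins that bind acidic phospholipids on the inner face of the plasma membrane, and several gather at a wound in the membrane within moments of calcium entry. S100 proteins are small proteins, many but not all of them calcium sensors, and some pair with particular annexins. Ferlins are tail-anchored proteins with repeated C2 domains that bring vesicles to the membrane and fuse them with it, and in human muscle loss of dysferlin causes a muscular dystrophy.

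All 10 genes had non-overlapping values in the 2 genotypes. Levels of 8 were higher in klf1 hearts and those of 2, anxa4 and anxa6, were lower. In the edgeR fit over 10493 genes, 7 of the 10 lay past the adjusted p threshold of 0.05 as higher and 2 as lower, and anxa11a did not pass. The genotypes differed widely across the transcriptome: 61.6% of all tested genes passed, 32.2% as higher and 29.4% as lower, and 57% did not overlap between genotypes. Because the 10 genes were chosen on this comparison, nothing is read from their own counts.

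The ferlin myof, myoferlin, is known in mouse for its part in myoblast fusion and membrane recycling. Its level was low in WT, at 15 to 26 counts per library against a floor of 3 counts, and far higher in klf1 hearts. It was at 2.99, 3.02, 2.17 and 1.84 CPM in WT libraries 1 to 4 and at 176, 195, 229 and 207 CPM in klf1 libraries 1 to 4. Every klf1 library stood far above every WT library, and the klf1 libraries lay close to each other. The log2 fold change, klf1 minus WT here and throughout, was 6.32 ± 0.19 (SE), or 80.5-fold between the means of 2.50 ± 0.594 and 202 ± 21.9 CPM (SD, n = 4 each). It was the change of rank 56 among the rises of all tested genes. The WT level rested on 83 counts over 4 libraries, with an exact 95% Poisson interval of 66.1 to 103 that covers counting error only.

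The levels of dysf, dysferlin, the ferlin of muscle membrane repair, differed far less. They were 48.8, 51.3, 28.9 and 45.3 CPM in WT and 72.0, 86.5, 145 and 124 CPM in klf1 libraries. WT library 3 was low among the WT hearts, and klf1 libraries 3 and 4 stood above libraries 1 and 2. That gave a log2 fold change of 1.29 ± 0.24, from 43.6 ± 10.1 to 107 ± 33.5 CPM. With a coefficient of variation of 31.4% in klf1 hearts, dysf was the most variable of the 10 genes there.

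Counted within each library, where scaling plays no part, the ratio of myof to dysf counts was 0.0589 ± 0.0142 in WT and 1.99 ± 0.428 in klf1 hearts (SD, n = 4). The genotypes were 34.0-fold apart with no overlap. The balance of ferlin reads thus moved from dysf toward myof. The ratio is not corrected for the lengths of the transcripts. Of the other ferlins, only otofa, an otoferlin gene known for synaptic vesicle release in hair cells, was in the count table. It lay at 0.603 to 2.30 CPM in WT and 1.49 to 1.77 CPM in klf1 hearts, with a log2 fold change of 0.03 ± 0.35 (edgeR, adjusted p = 0.953).

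**Figure D1:**
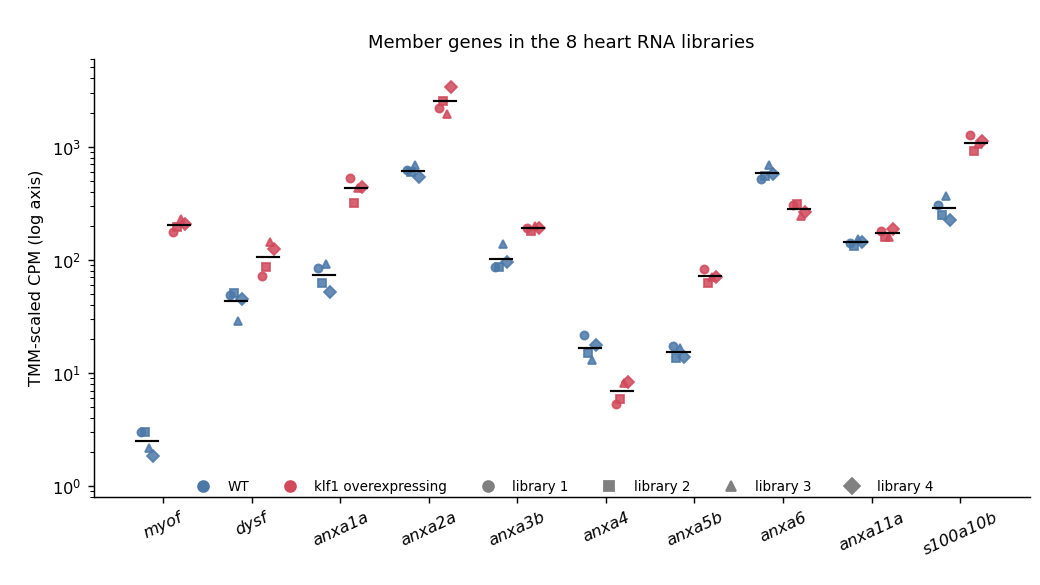
TMM-scaled CPM on a log axis of the 10 genes in each of 4 WT (blue) and 4 klf1 (red) libraries; marker shapes give the library number within a genotype and black lines the means. The myof points sit at 1.84 to 3.02 CPM in WT and 176 to 229 CPM in klf1 hearts, and anxa4 and anxa6 are the pair with lower klf1 points.

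Among the annexins, anxa2a held the largest mean share of counts in both genotypes, uncorrected for transcript length. In WT library 4 anxa6 had more counts, with a ratio of anxa2a to anxa6 of 0.933. Annexin A2 forms a complex with a dimer of S100A10 that links membranes to actin and binds plasminogen activators at the cell surface. The level of anxa2a was 627, 602, 685 and 540 CPM in WT and 2171, 2511, 1940 and 3392 CPM in klf1 libraries. The WT libraries were tightly grouped, while klf1 library 4 stood above the other klf1 hearts. This was a log2 fold change of 2.03 ± 0.20, from 613 ± 60.1 to 2503 ± 637 CPM.

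The gene of its partner, s100a10b, was higher in klf1 hearts by a similar mean amount. It was at 305, 249, 363 and 225 CPM in WT and 1266, 911, 1045 and 1121 CPM in klf1 libraries. All klf1 libraries were above all WT libraries, with WT library 3 the highest of its genotype and klf1 library 2 the lowest of its own. On the log2 scale the fold change was 1.93 ± 0.19. The anxa2a to s100a10b count ratio was 2.19 ± 0.261 in WT and 2.34 ± 0.651 in klf1 hearts (SD, n = 4), and the genotypes overlapped, so the balance of the pair differed by less than the spread between libraries. Its highest values in klf1 hearts, 3.03 and 2.76, came from libraries 4 and 2.

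The levels of anxa1a, the annexin through which glucocorticoids are known to damp inflammation in mammals, were 85.2, 62.8, 91.0 and 51.9 CPM in WT and 525, 318, 435 and 439 CPM in klf1 libraries. The lowest klf1 library was well above the highest WT library. The log2 fold change was 2.56 ± 0.22, the largest of the 7 annexins followed here. For anxa5b, an ortholog of the annexin that assembles into lattices on phosphatidylserine, values were 17.2, 13.5, 16.6 and 13.8 CPM in WT and 83.8, 62.2, 70.1 and 69.8 CPM in klf1 libraries. Both genotypes were tight, and the log2 fold change was 2.22 ± 0.14.

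Smaller differences were seen for anxa3b and anxa11a. Values of anxa3b were 87.3, 86.0, 137 and 95.3 CPM in WT and 192, 180, 200 and 190 CPM in klf1 libraries, a log2 fold change of 0.91 ± 0.16. WT library 3 was the high one of its genotype. Values of anxa11a, whose mammalian protein binds the calcium sensor encoded by pdcd6 and tethers RNA granules to lysosomes, were 142, 134, 152 and 143 CPM in WT and 178, 161, 160 and 186 CPM in klf1 libraries. The highest WT and the lowest klf1 values were separated by a narrow gap, and the log2 fold change was 0.26 ± 0.12.

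Lower levels were found for anxa6 and anxa4. Annexin A6, which carries a doubled annexin core, is an abundant annexin of the mammalian heart and helps to form the repair cap in mouse muscle fibres. It was at 513, 546, 682 and 579 CPM in WT and 307, 313, 244 and 263 CPM in klf1 libraries. Each klf1 library was below each WT library, and the log2 fold change was -1.04 ± 0.15. The levels of anxa4, a membrane-binding annexin known mainly from epithelia, were 21.6, 15.1, 13.0 and 17.5 CPM in WT and 5.31, 5.84, 8.21 and 8.27 CPM in klf1 libraries. Here too no libraries overlapped, and the log2 fold change was -1.28 ± 0.20.

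The lower side of this picture depends on scaling. TMM factors were 0.750 to 0.831 in WT and 1.23 to 1.32 in klf1 libraries, and with library totals alone the median of all tested genes moved to 0.75, with 65.1% of tested genes called higher. On that scale 8 of the 10 genes were called higher and 1 lower. All 10 kept their sign, but anxa6 was at -0.33, anxa4 at -0.56 and anxa11a at 0.98. Of the pair with lower levels, anxa4 was still called lower there and anxa6 was not. Both lay below the median of all genes on either scale. A change of scaling shifts all genes nearly alike, so that position cannot check the fall. The ratio of anxa2a to anxa6 counts, which no scaling touches, was 1.07 ± 0.126 in WT and 8.98 ± 2.64 in klf1 hearts (SD, n = 4). The 8.23-fold difference showed no overlap, and klf1 library 4 was the highest at 12.9. This ratio also holds the rise of anxa2a, which was at 2.75 with library totals alone. It therefore does not show by itself that anxa6 fell.

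The make-up of annexin reads differed accordingly. Counts of 16 annexin genes made up 0.149% ± 0.0120 of all counts in WT and 0.644% ± 0.0736 in klf1 hearts (SD, n = 4). Of these annexin counts, anxa2a held 32.2% ± 1.97 in WT and 49.4% ± 7.72 in klf1 hearts, while anxa6 held 30.3% ± 1.93 and 5.67% ± 0.944. The share of anxa1a was 3.78% ± 0.737 in WT and 8.57% ± 1.67 in klf1 hearts. That of anxa11a was 7.49% ± 0.446 and 3.42% ± 0.167, although its own CPM was higher in klf1 hearts. WT annexin reads were thus led by anxa2a and anxa6 in like amounts, and klf1 annexin reads by anxa2a and anxa13.

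**Figure D2:**
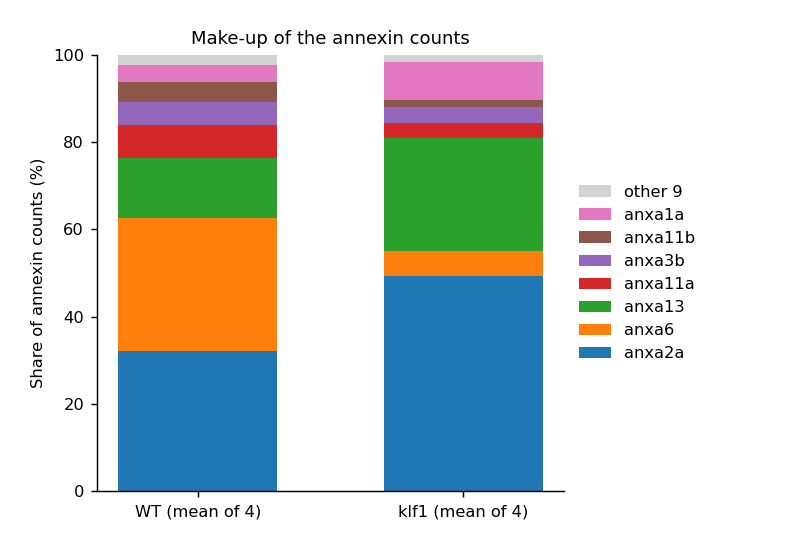
Share of all annexin counts held by each annexin gene, in percent, as the mean of 4 libraries per genotype, not corrected for transcript length. The anxa6 segment shrinks from 30.3% in WT to 5.67% in klf1 hearts, while anxa2a and anxa13 widen to 49.4% and 25.8%.

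Beyond the 10 genes, the table held 21 other annexin, S100 and ferlin genes, of which 9 had enough counts to be tested. In edgeR's quasi-likelihood test with Benjamini-Hochberg adjustment over all tested genes, 4 rose, 1 fell and 4 did not pass, with a median log2 fold change of 0.10. Over all tested genes 32.2% rose, 29.4% fell and the median was 0.03, so counts over so few genes are read as a description of them. The remaining 12 genes, anxa1b, anxa1c, zgc:110283 (anxa1d in RefSeq), anxa2b, anxa3a, anxa5a, s100a1, s100a11, s100b, s100s, s100z and icn2, were at no more than 1.31 CPM in any library and were not tested.

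The S100 gene s100a10a, the second zebrafish counterpart of mammalian S100A10, rose from a level near the floor. It was at 1.49, 0.378, 1.81 and 1.102 CPM in WT and 49.2, 22.1, 39.7 and 57.7 CPM in klf1 libraries. All klf1 libraries were far above all WT libraries, and klf1 library 2 was the low one. The log2 fold change was 5.12 ± 0.38 (edgeR, adjusted p = 4.46e-07), with a WT level resting on 40 counts (exact 95% Poisson interval 28.6 to 54.5). By counts, not corrected for length, s100a10a stayed the minor copy, at 0.00408 ± 0.00171 of the s100a10b counts in WT and 0.0381 ± 0.0111 in klf1 hearts. Where reads could belong to either paralog, their assignment is not known.

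The other family genes that rose were anxa13, icn and s100u. For anxa13, a myristoylated annexin known from mammalian intestinal epithelium, values were 255, 215, 333 and 258 CPM in WT and 1561, 1016, 1353 and 1216 CPM in klf1 libraries. Its log2 fold change was 2.28 ± 0.19 (edgeR, adjusted p = 1.05e-06), without overlap. For icn, ictacalcin, an S100 gene of fish epithelia, values were 143, 116, 199 and 104 CPM in WT and 704, 389, 573 and 609 CPM in klf1 libraries. The 2 genotypes were again apart, and the log2 fold change was 2.02 ± 0.24 (edgeR, adjusted p = 1.56e-05). The gene s100u went from 40.3 ± 3.15 to 69.7 ± 10.8 CPM (log2 fold change 0.79 ± 0.14, edgeR, adjusted p = 0.000294).

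The single family gene that fell was anxa13l, a relative of anxa13, from 14.4 ± 2.69 to 8.30 ± 4.65 CPM. Its log2 fold change was -0.79 ± 0.32 with an edgeR adjusted p of 0.0489, its libraries overlapped, and klf1 library 2 was at 14.8 CPM. The call was lost when any single library other than klf1 library 2 was left out, with values of -1.24 to -0.55 over all 8 such fits. The 4 genes that did not pass had log2 fold changes of -0.18 ± 0.12 for anxa11b (adjusted p = 0.187), 0.10 ± 0.16 for s100v2 (adjusted p = 0.632), -0.27 ± 0.36 for s100t (adjusted p = 0.536) and the value given above for otofa. The ratio of anxa11a to anxa11b counts was 1.62 ± 0.135 in WT and 2.23 ± 0.320 in klf1 hearts (SD, n = 4), with no overlap. With library totals alone the 2 genes were at 0.98 and 0.53.

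**Figure D3:**
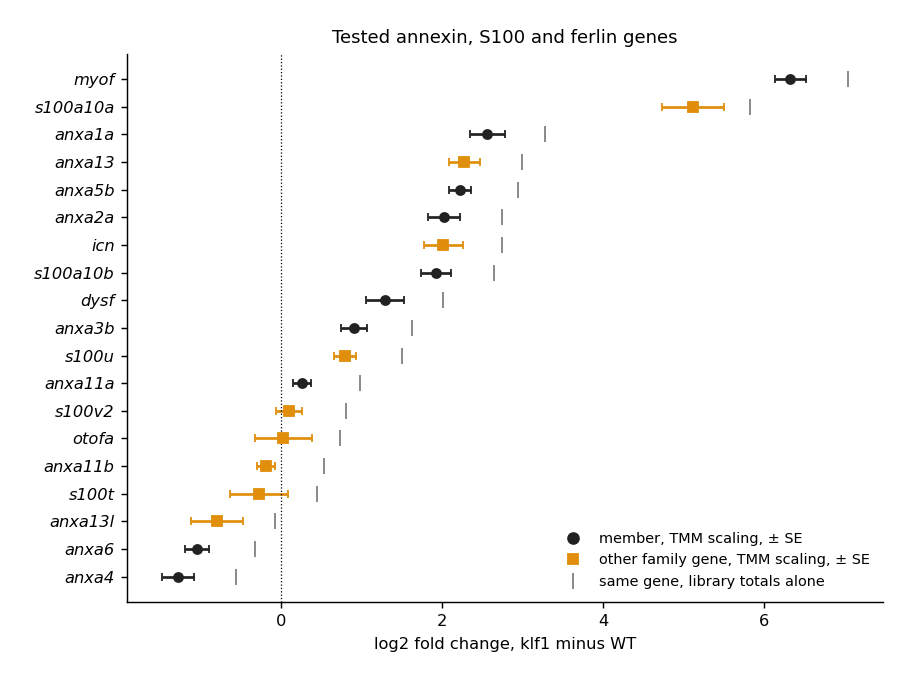
Log2 fold change, klf1 minus WT, of the 10 chosen genes (black circles) and the 9 other tested family genes (orange squares), with SE bars, after TMM scaling; grey ticks give the same genes with library totals alone. The values run from -1.28 for anxa4 to 6.32 for myof, and every grey tick lies to the right of its point.

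The expression pattern of s100a10b over the 8 libraries was closest to that of icn among 10483 other tested genes, with a root mean square difference of 0.140 in centred log2 CPM. The next were cd63, a tetraspanin of late endosomes, at 0.143 and rcan1a, a calcineurin regulator, at 0.145. Such a likeness was common, since 858 genes lay within 0.5, and anxa13 had rank 50. The icn to s100a10b count ratio was 0.486 ± 0.0418 in WT and 0.519 ± 0.0615 in klf1 hearts (SD, n = 4), with overlapping libraries. In the gene order of RefSeq's assembly GRCz12tu, icn lies next but 1 to s100a10b, with s100w between them. By the same measure anxa4 was closest to nt5e, an ecto-nucleotidase, at 0.102, then to dachc at 0.143 and ism1, a secreted isthmin, at 0.151, with 1892 genes within 0.5. For myof the nearest were fgf12a at 0.221, the Wnt inhibitor wif1 at 0.395 and the homeobox gene dlx4a at 0.399, with 11 genes within 0.5. Since fgf12a had 0 counts in all WT libraries, its distance depends on the prior count of 2 used for log2 CPM.

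Direct neighbours of the 10 genes were looked up in the same gene order. Of 20 adjacent protein-coding genes, 8 were in the count table and 7 were tested. Of these 7, 1 rose and 3 fell, beside 32.2% and 29.4% of all tested genes. The riser was krtcap2 beside s100a10b, at 0.48 ± 0.17 (edgeR, adjusted p = 0.0271). Those that fell were uchl1 beside anxa5b at -1.58 ± 0.26, rmnd5b beside anxa6 at -0.71 ± 0.13 and mocos beside anxa11a at -0.92 ± 0.17 (edgeR, adjusted p = 0.000211, 0.000405 and 0.000468).

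Ratios between genes set several of these shifts side by side without any scaling. Those of myof to dysf, s100a10a to s100a10b, anxa2a to anxa6 and anxa11a to anxa11b did not overlap between genotypes, with 34.0-, 10.04-, 8.23- and 1.37-fold differences. The ratios of anxa2a and of icn to s100a10b overlapped, with 1.04- and 1.06-fold differences.

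**Figure D4:**
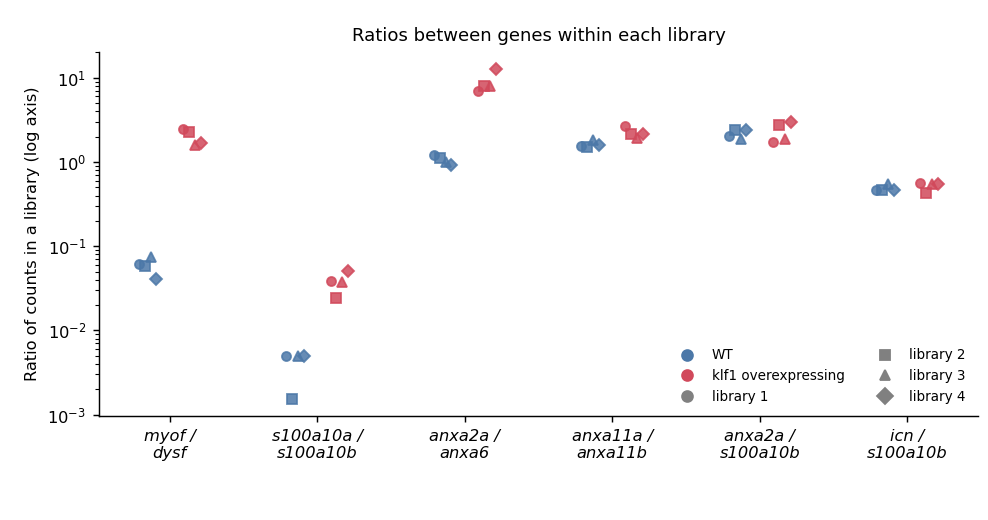
Ratio of the counts of 2 genes within each library, on a log axis and not corrected for transcript length, for 4 WT (blue) and 4 klf1 (red) libraries, with marker shapes for the library number. The first 4 ratios separate the genotypes and the last 2 do not.

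Annexins and ferlins work with other proteins at a damaged membrane, and 7 groups of such genes were examined in the same fit. The count table held 78 of these genes, and 66 were tested, of which 32 rose, 12 fell and 22 did not pass, with a median log2 fold change of 0.36 against 0.03 for all tested genes. Over all tested genes 32.2% rose and 29.4% fell, and the counts of each group below are to be set beside those shares. These lists, like the cell type lists below, were written with earlier results of these data known. Their counts and medians therefore describe the listed genes and are no independent test of the groups.

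In the plasminogen system, which annexin A2 and S100A10 help to assemble on cells, 3 of 4 tested genes rose and 1 fell. The urokinase genes plaub and plaua rose by 4.02 ± 0.39 and 3.13 ± 0.33 on the log2 scale (edgeR, adjusted p = 3.15e-06 and 5.94e-06). Their means went from 0.361 and 0.822 CPM in WT to 6.02 and 7.25 CPM in klf1 hearts. The WT means rested on only 12 and 27 counts over 4 libraries. The gene of a protease inhibitor, serpine2, went from 18.6 ± 2.93 to 42.0 ± 7.44 CPM without overlap (log2 fold change 1.17 ± 0.16, edgeR, adjusted p = 6.18e-05). The receptor gene plgrkt fell by 0.97 (± 0.17, edgeR, adjusted p = 0.000333), a call lost with library totals alone, at -0.25.

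Caveolae are membrane pits that flatten under tension and take part in the removal of membrane wounds. Of 6 tested genes 2 rose, 1 fell and 3 did not pass, shares near those of all tested genes. The coat gene ptrfb, or cavin1b, was at 103, 110, 50.03 and 71.3 CPM in WT and 810, 868, 1017 and 886 CPM in klf1 libraries, with WT library 3 the lowest and no overlap. Its log2 fold change was 3.42 ± 0.25 and that of the caveolin gene cav1 was 2.01 ± 0.15 (edgeR, adjusted p = 3.36e-07 and 3.99e-07). The caveolin genes cav3 and cav2 lie outside the naming rule and were added after their values were seen. The muscle caveolin gene cav3 was at 66.2 ± 11.1 and 67.1 ± 7.38 CPM (log2 fold change 0.02 ± 0.14, adjusted p = 0.916), and cav2 was at a log2 fold change of -0.42 ± 0.20 (adjusted p = 0.0850). The cavin gene with most counts, sdprb, was at -0.01 ± 0.16 (adjusted p = 0.961), and sdpra fell by 0.60 (± 0.13, adjusted p = 0.00197). With library totals alone cav3 was at 0.74, cav2 at 0.30, sdprb at 0.70 and sdpra at 0.12, and cav3 and sdprb were called higher.

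Among EHD, scramblase and membrane-shaping genes 4 of 7 tested genes rose and 3 did not pass. The gene ehd2b, encoding the ATPase of the caveolar neck, was at 76.2, 99.4, 50.03 and 61.2 CPM in WT and 1376, 1198, 1906 and 1388 CPM in klf1 libraries. The genotypes were far apart, and WT library 3 was lowest among WT and klf1 library 3 highest among klf1 hearts. The log2 fold change was 4.35 ± 0.26 (edgeR, adjusted p = 8.81e-08). The amphiphysin gene bin1b, of the family that shapes transverse tubules, rose by 1.80 ± 0.18 and the transglutaminase gene tgm2b by 0.84 ± 0.19 (edgeR, adjusted p = 4.76e-06 and 0.00213).

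Calpains are calcium-activated proteases that cut dysferlin and the cortical cytoskeleton at an injury. Of 10 tested genes of this group 8 rose and 1 fell. The regulatory subunit gene capns1a rose by 1.22 ± 0.15, capn2b by 1.16 ± 0.16 and capn2a by 0.96 ± 0.14 on the log2 scale (edgeR, adjusted p = 2.49e-05, 6.04e-05 and 6.44e-05). The muscle calpain gene capn3b fell, from 13.5 ± 3.50 to 3.20 ± 0.964 CPM (log2 fold change -2.07 ± 0.24, adjusted p = 1.48e-05). The gene of the calpain inhibitor, cast, was at -0.38 ± 0.18 (adjusted p = 0.0901). It was called lower with the DESeq2 test (-0.41), without WT library 3 (-0.51) and without WT library 3 and klf1 library 1 together (-0.42). Its sign depended on scaling: library totals alone put cast at 0.33 and upper-quartile factors at -0.31, both without a call. The ratio of capns1a to cast counts was 0.217 ± 0.0849 in WT and 0.650 ± 0.190 in klf1 hearts (SD, n = 4), with no overlap, and WT library 3 was the highest WT value at 0.344.

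The ESCRT complexes pinch off damaged membrane and are recruited by the calcium sensor ALG-2, the product of pdcd6. Of 16 tested genes 8 rose and 2 fell. The rises were modest, with pdcd6 at 1.00 ± 0.14, chmp3 at 0.78 ± 0.12 and chmp5b at 0.76 ± 0.13 (edgeR, adjusted p = 4.64e-05, 0.000163 and 0.000245). The adaptor gene pdcd6ip was at 0.42 ± 0.18 (adjusted p = 0.0585). It was called higher without WT library 1 (0.50), without klf1 library 1 (0.54) and without WT library 3 and klf1 library 1 together (0.42). It was also called higher with upper-quartile factors (0.50), with library totals (1.14) and with either other filter (0.45 and 0.44). The genes chmp7 and vps4a fell by 0.65 and 0.40 (adjusted p = 0.000558 and 0.0185), and with library totals alone they were at 0.064 and 0.32. The call of vps4a was also lost without WT library 2, at -0.34.

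Of 11 tested genes of SNARE-driven membrane fusion 6 rose and 1 fell. The vesicle SNARE genes vamp8 and vamp2 rose by 1.90 ± 0.19 and 1.43 ± 0.31, and snap23.2 by 2.27 ± 0.37 from 0.900 to 4.40 CPM (edgeR, adjusted p = 3.93e-06, 0.00153 and 0.000211). The WT level of snap23.2 rested on 30 counts. The gene with most counts, vamp3, was at -0.14 ± 0.15 (adjusted p = 0.420), and sytl4 fell by 0.50 (± 0.11, adjusted p = 0.00183). With library totals alone vamp3 and sytl4 were at 0.57 and 0.22.

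The dystrophin complex ties the muscle membrane to the matrix and protects it from tearing. Of its 12 tested genes 6 fell, 1 rose and 5 did not pass, with a median log2 fold change of -0.55. The dystrobrevin gene dtnbb fell from 6.12 ± 0.503 to 0.621 ± 0.165 CPM (log2 fold change -3.29 ± 0.25, edgeR, adjusted p = 4.46e-07). The sarcoglycan gene sgcd fell from 103 ± 16.5 to 30.0 ± 2.31 CPM, by 1.78 on the log2 scale, and sspn by 1.63 (adjusted p = 6.13e-07 and 7.78e-06). The riser was sgcb, at 0.28 ± 0.11 (adjusted p = 0.0418), a call lost when any single library other than klf1 library 4 was left out, at 0.24 to 0.33 over all 8 fits. The gene with most counts, dtnba, was at -0.22 ± 0.14 (adjusted p = 0.192). Without WT library 3 and klf1 library 1 together it was called lower, at -0.31. With library totals alone 4 of the 12 were called higher and 4 lower, the median was 0.16, and dtnba was at 0.49.

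**Figure D5:**
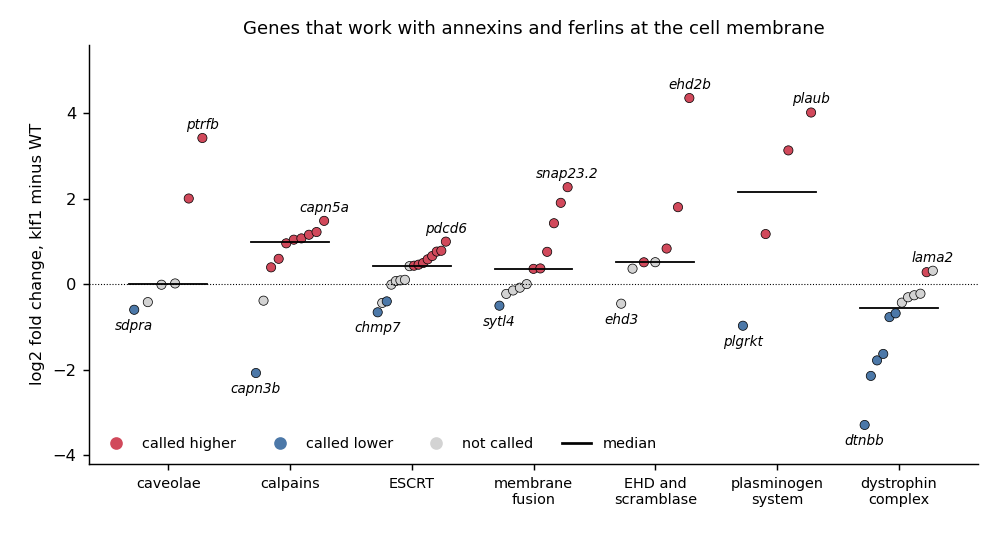
Log2 fold change, klf1 minus WT, of the tested genes of 7 membrane repair groups; red points were called higher, blue lower and grey not called (edgeR, adjusted p threshold 0.05), and black lines are the group medians. The plasminogen group has a median of 2.15 and the dystrophin complex one of -0.55.

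Markers of the cell types that a heart holds differed as well, and the summed CPM of each marker list is given as a range over 4 libraries. Counts called in these lists, here and below, lie beside 32.2% of all tested genes that rose and 29.4% that fell. Lists with 1 of 3 markers called are near those shares. The 5 cardiomyocyte markers all fell, with sums of 183619 to 222214 in WT and 22432 to 37809 in klf1 hearts, and with vmhcl at -2.48 ± 0.24 and myl7 at -3.94 ± 0.31. Because 57% of all tested genes did not overlap between genotypes, a shared direction of markers and family genes is not read as a link. All 5 macrophage markers rose, with sums of 64.7 to 94.0 in WT and 288 to 406 in klf1 hearts, with lcp1 at 2.72 ± 0.19 and csf1ra at 1.81 ± 0.15. Of 4 epicardial markers 3 rose, with sums of 84.8 to 124 in WT and 585 to 727 in klf1 hearts, with aldh1a2 at 2.83 ± 0.17 and tbx18 at 1.27 ± 0.18.

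Of 6 fibroblast markers 4 rose, with sums of 756 to 939 in WT and 1157 to 2497 in klf1 hearts, with col1a1a at 1.39 ± 0.26 and dcn at 1.16 ± 0.19. Of 5 neutrophil markers 3 rose, with sums of 53.1 to 76.7 in WT and 105 to 120 in klf1 hearts, with mmp9 at 2.18 ± 0.53 and nccrp1, which did not pass, at 0.14 ± 0.16. All 3 tested lymphoid markers rose but stayed at summed levels of 2.30 to 4.65 in WT and 7.81 to 13.2 in klf1 hearts, with cd4 at 1.82 and lck at 0.96. Of 3 smooth muscle markers 1 rose, with sums of 156 to 232 in WT and 245 to 331 in klf1 hearts, namely tagln at 2.39 ± 0.32, while acta2 was at 0.31 ± 0.18 and did not pass.

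Of 3 tested markers of surface epithelium, krt4 rose by 4.24 ± 0.25 and carried the list, with sums of 65.2 to 126 in WT and 1392 to 2349 in klf1 hearts, while krt5 at 0.82 ± 1.03 and the remaining marker did not pass. Of 5 endothelial markers 3 fell and 2 did not pass, with sums of 845 to 1210 in WT and 719 to 941 in klf1 hearts, with kdrl at -0.90 ± 0.21 and cdh5, which did not pass, at -0.13 ± 0.14. Of 3 thrombocyte markers 1 fell, with sums of 59.3 to 97.9 in WT and 40.4 to 70.6 in klf1 hearts, with gp1bb at -0.64 ± 0.18 and itga2b at -0.31 ± 0.26. Of 5 tested erythrocyte markers 1 rose and 2 fell, with sums of 794 to 1525 in WT and 753 to 1284 in klf1 hearts, with alas2 at -0.55 ± 0.22 and hbaa1, which did not pass, at -0.16 ± 0.25, and ba1 was listed at 0 in all libraries. None of the 5 tested erythrocyte markers separated the genotypes without overlap. The lower call of alas2 was near the threshold (edgeR, adjusted p = 0.0470) and was lost with upper-quartile factors, at -0.48. The lower calls outside the cardiomyocyte list depended on scaling. On library totals alone, 6834 of all tested genes were called higher and 1399 lower. The 5 cardiomyocyte markers were still called lower there, but no endothelial, thrombocyte or erythrocyte marker was. Instead 2 endothelial and 2 erythrocyte markers were called higher. On that scale kdrl was at -0.18, cdh5 at 0.59, gp1bb at 0.083 and alas2 at 0.17. The part of the cell type markers in the annexin, S100 and ferlin levels was not tested.

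Libraries differed in a common way across several of the 10 genes. WT library 3 had the highest WT value of 6 of them and the lowest of dysf and anxa4, and klf1 library 2 had the lowest klf1 value of 4. Without any single library, the log2 fold changes stayed within 6.19 to 6.42 for myof, 1.11 to 1.42 for dysf, 1.85 to 2.14 for anxa2a, 1.82 to 2.06 for s100a10b and -1.10 to -0.96 for anxa6.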

How the data were processed

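RNA of whole adult hearts was measured in 8 libraries, grouped by the genotype in the labels, 4 WT and 4 klf1 overexpressing. Of the 35 samples, 27 of other assays were not analysed here. A stranded mRNA kit (Kapa) was used on miRNeasy-purified RNA, per the labels' protocols. The values are the authors' raw counts per gene and library, deposited as whole numbers without normalization or pooling. The submitters' processing notes name danRer10, Bowtie2 2.2.8 and deepTools 3.1.2 with no role attached. Which tool aligned or counted the RNA reads, and with which strand setting, is not given in the sources used here, so paralogs and overlapping or antisense genes are uncertain.

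Counts were fitted in R 4.3.3 with edgeR 4.0.16: filterByExpr by genotype (10493 of 14781 genes), TMM factors, a robust quasi-likelihood fit with an intercept and genotype, and Benjamini-Hochberg adjustment over all tested genes with a threshold of 0.05. Standard errors are approximate: the size of the fold change over the root of its F statistic. The scripts were tested on simulated counts in which few genes were changed, evenly up and down. That setting lacks the wide difference between genotypes seen here, so it does not bear on the choice of scaling. Totals of 9829896 to 13083853 counts put the floor of 3 counts at 0.178 to 0.378 CPM. DESeq2 1.42.0, voom of limma 3.58.1, other scalings and filters, and fits without libraries were alternatives. The 10 genes and all lists were chosen with earlier results of these data known. Named are all family genes in the table, and in each partner list the called genes with the 3 smallest adjusted p in each direction and the gene with most counts. In each marker list the pair with most counts is named. Some symbols were matched through RefSeq synonyms. No sequences were used, and RefSeq start positions served only to put genes in order for the lookup of neighbours. A gene of the plasminogen list is not reported here and is left out of its counts.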

Additional observations from a re-analysis of the deposited data

Results flagged for a closer look

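Over 51 genes and 102 groups of 4 libraries, 5 had a library far from the other libraries of its genotype, by a rule that chance meets in about 1 group in 20. In WT library 3, capns1a was at 239 CPM against 172 to 182 in the other WT libraries, and vamp3 at 263 against 185 to 193 CPM. In klf1 hearts, capn2a was at 99.8 CPM in library 3 against 78.2 to 79.5, pdcd6ip at 136 CPM in library 1 against 201 to 213, and otofa at 1.77 CPM in library 1 against 1.49 to 1.52. None of the 10 chosen genes had such a library.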

How the results depend on the processing

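The 10 chosen genes kept their direction in all 17 alternatives, and only library totals alone moved any of them by more than the spread between replicates. With library totals alone, 6834 genes were called higher and 1399 lower, against 3377 and 3084, and 48 repair partner genes higher and 5 lower, against 32 and 12. Among the named family and partner genes, the sign then reversed for anxa11b (0.53), sdprb (0.70), sdpra (0.12), chmp7 (0.064), vps4a (0.32), vamp3 (0.57), sytl4 (0.22) and dtnba (0.49). It also reversed for cast (0.33), s100t (0.45) and cav2 (0.30). Of the named cell type markers, cdh5 (0.59), alas2 (0.17), gp1bb (0.083), itga2b (0.39) and hbaa1 (0.55) changed sign as well. The 1 other family gene called lower, anxa13l, was not called with library totals, upper-quartile factors, no filter, a filter of 50 counts in 4 libraries, or without WT library 3 and klf1 library 1 together, a pair left out after the data were seen (0 genes each). Without any single library the count was 0 to 1. The 4 family genes called higher kept that count in every leave-one-out fit.

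The shares of counts moved with the denominator. With TMM-scaled CPM they were 0.191% in WT and 0.503% in klf1 hearts for annexins, 0.0537% and 0.184% for S100 genes and 0.00476% and 0.0310% for ferlins. Without the 50 most counted genes they were 0.250% and 0.808%, 0.0699% and 0.295%, and 0.00627% and 0.0499%. As counted, S100 genes held 0.0416% and 0.235% and ferlins 0.00373% and 0.0399%. The count table numbers the libraries 1 to 4 in each genotype, while the titles count on from WT to klf1, and no label says that a number marks a pair. Deviations of same-numbered libraries from their group means correlated at -0.19 to 0.093 over 10493 genes, so the numbers were not taken as pairs. The largest such correlation between any WT and any klf1 library was 0.34, for WT library 3 and klf1 library 1. A replicate block, added after the data were seen, gave 3215 genes higher and 2896 lower, 4 and 1 other family genes, and 31 and 13 repair partners. It ended the call of sgcb (0.28) and of no other named family or partner gene outside the 10. Calls of the named cell type markers and of the neighbours were not followed in this fit. Depth limits low values such as the WT values of myof, s100a10a, plaub, plaua and snap23.2. It also limits the 12 untested genes, whose absence is not shown.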

Other observations

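Several other genes of these families were nearly silent in both genotypes. Over 4 libraries each, anxa1b had 14 counts in WT and 52 in klf1 hearts, anxa2b had 2 and 28, s100z had 16 and 38, s100b had 1 and 10, icn2 had 3 and 10, and s100a11 had 14 and 12. The gene zgc:110283 had 0 and 6 counts, s100s 1 and 4, anxa1c 3 and 3, anxa5a 0 and 2 and s100a1 1 and 0, and anxa3a had none in any library. These genes were too low for a test, and a count near the floor does not show that a gene is off.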
